A study of Arabidopsis thaliana with 18 samples.

Results

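The 10 genes described here make the aliphatic glucosinolates of Arabidopsis leaves or switch that synthesis on. They were chosen by name for their role in the pathway, with earlier results of these data known. They are 3 transcription factor genes (MYB28, MYB29 and MYB76) and 7 enzyme genes (BCAT4, MAM1, CYP79F1, CYP79F2, CYP83A1, SOT18 and FMO GS-OX1) of the 32678 genes in the count table. All 10 were among the 20023 genes with enough counts to be tested. Poly(A) RNA of leaves was counted in 18 libraries, with 3 libraries in each of 6 groups. The 35S:RPS4 plants were Col-0 plants with the transgene 35S:RPS4-HS, in which the constitutive viral 35S promoter drives the immune receptor gene RPS4, and the other plants were Col-0 wild type without it. Both lines were kept at 28 °C for their first 3.5 weeks, a temperature at which the receptor's response is held back. Leaves were taken at 28 °C (0 h) or 4 h and 8 h after a move to 19 °C, with no pathogen. The labels name 1 transgenic line, and the 35S promoter is active in most cells, so RPS4 was not raised in its own pattern. Whether replicate libraries stem from different plants is not stated in the labels, and the p-values cover the spread between these libraries only. Time since the shift and the hour of the day cannot be told apart within a line.

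Glucosinolates are sulfur-rich compounds of the cabbage family that become toxic or repellent once the enzyme myrosinase cleaves them in damaged tissue. The aliphatic ones are built from methionine, whose side chain is first lengthened and which is then turned into the core structure by cytochromes P450 and a sulfotransferase, after which the side chain is oxidised. MYB28, MYB29 and MYB76 are closely related R2R3-MYB factors that activate this set of enzyme genes, with MYB28 the main regulator in leaves, while a parallel branch under MYB34, MYB51 and MYB122 makes indole glucosinolates from tryptophan. An immune receptor such as RPS4 reads pathogen activity inside the cell and reprograms transcription.

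The upstream sequences of the 10 genes were read because most of the genes moved together. The windows hold the 250 bases before each annotated gene start in the RefSeq annotation of TAIR10.1 and were searched on both strands for 4 short motifs. The G-box CACGTG, which MYC-type factors bind, was found in 1 of the 10 windows, against 6.49% of all 27443 windows. The W-box core TTGAC of WRKY factors was found in 2 of 10, against 44.9% of all windows, and the AC element ACCAAC of R2R3-MYB factors in 1 of 10, against 11.5%. The core CGCG of sites bound by CAMTA factors was found in 0 of 10 windows, against 10.1% of all. The windows of the 3 genes with a match are shown, with the matches in capitals. The G-box of CYP83A1 begins 43 bases before its start, the W-box cores of MYB76 begin 95 and 90 bases before its start without sharing a base, and in CYP79F2 the W-box core begins 194 and the AC element 173 bases before the start.
CYP83A1 (chr4:7992430-7992679, minus strand): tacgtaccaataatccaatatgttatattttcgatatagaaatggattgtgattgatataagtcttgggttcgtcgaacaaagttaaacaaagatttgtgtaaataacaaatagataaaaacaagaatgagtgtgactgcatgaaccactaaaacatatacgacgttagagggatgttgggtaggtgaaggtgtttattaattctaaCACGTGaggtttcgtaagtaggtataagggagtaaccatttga
MYB76 (chr5:2449777-2450026, plus strand): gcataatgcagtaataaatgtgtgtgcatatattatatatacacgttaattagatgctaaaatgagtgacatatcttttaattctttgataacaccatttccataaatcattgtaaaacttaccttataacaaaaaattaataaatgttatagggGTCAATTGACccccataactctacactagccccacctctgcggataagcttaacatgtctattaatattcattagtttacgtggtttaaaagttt
CYP79F2 (chr1:5604794-5605043, plus strand): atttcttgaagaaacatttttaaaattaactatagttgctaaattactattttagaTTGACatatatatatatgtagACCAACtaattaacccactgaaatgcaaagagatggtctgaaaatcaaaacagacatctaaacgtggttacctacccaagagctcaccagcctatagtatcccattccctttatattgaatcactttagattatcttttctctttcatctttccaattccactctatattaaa
The windows of MYB28, MYB29, BCAT4, MAM1, CYP79F1, SOT18 and FMO GS-OX1 held none of the 4 motifs. These are matches of letters in a short window, and binding was not measured.

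The libraries held 23876651 to 36291942 counts in genes, so the limit that a count of 0 allows (3 counts, for counting error only) was 0.0845 to 0.150 CPM in a library, CPM being counts scaled to a library of 1000000 counts. RPS4, which checks the labels, was at 665 to 2604 CPM in the 9 35S:RPS4 libraries, against 12.2 to 20.1 CPM in the 9 Col-0 libraries. Of the 5 leaf mesophyll markers 0 were lower in 35S:RPS4 at 4 h, when their summed level was 18855 to 22377 CPM in 35S:RPS4, against 21918 to 23583 CPM in Col-0, while at 8 h all 5 were lower (6258 to 7206 CPM in 35S:RPS4, against 20207 to 30418 CPM in Col-0). Of the 4 epidermis and trichome markers 3 were lower at 4 h (106.7 to 127.7 CPM in 35S:RPS4, against 276 to 353 CPM in Col-0) and 4 at 8 h (63.4 to 66.6 CPM in 35S:RPS4, against 300 to 446 CPM in Col-0). Of the 4 vasculature markers, cells in which much of this pathway is known to be active, 0 were lower at 4 h (180 to 215 CPM in 35S:RPS4, against 150 to 287 CPM in Col-0) and 1 at 8 h (67.0 to 137 CPM in 35S:RPS4, against 181 to 252 CPM in Col-0). Of the 4 guard cell markers 0 were lower at 4 h (42.3 to 61.3 CPM in 35S:RPS4, against 37.0 to 46.5 CPM in Col-0). At 8 h 1 was lower and 1 higher (40.9 to 60.4 CPM in 35S:RPS4, against 39.2 to 48.3 CPM in Col-0). Over all genes tested, 12.4% were lower at 4 h, and 30.1% were lower and 26.6% higher at 8 h. No marker of these lists was at 0, and the part of these shifts in the results on the members was not tested. In whole leaves, fewer cells that express a gene and less RNA per cell cannot be told apart. Libraries that stood apart within their group were 35S:RPS4 replicate 2 at 4 h, with an enzyme sum of 281 CPM against 98.2 and 104 CPM in its group, 35S:RPS4 replicate 2 at 0 h (678 against 1638 and 1864 CPM) and Col-0 replicate 1 at 4 h (1185 against 560 and 521 CPM). Calls of members that changed without 1 of these libraries are given beside the results.

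Before the shift the pathway was on in both lines. The summed level of the 7 enzyme genes at 0 h was 678 to 1864 CPM in 35S:RPS4, against 1140 to 1774 CPM in Col-0, and that of the 3 regulators was 67.5 to 77.0 CPM in 35S:RPS4, against 64.8 to 124 CPM in Col-0. Genes were tested with edgeR's quasi-likelihood test, and a change was called where the Benjamini-Hochberg adjusted p was below 0.01 and the log2 fold change (log2FC) exceeded 1 in either direction. At 0 h 0 of the 10 genes were called, against 0% of all genes tested called lower and 0.00999% called higher, and DESeq2 and limma voom called 0 as well. MYB29 was the 1 member with an unadjusted p under 0.05, a level that 9.6% of all genes passed, with a log2FC of -0.74 ± 0.33 (SE; edgeR adjusted p = 0.493). Its levels did not overlap between the lines, at 31.8, 25.6 and 26.8 CPM in 35S:RPS4, against 38.5, 67.2 and 34.7 CPM in Col-0. The share of all genes without overlap at 0 h was not counted, so no difference is read from this separation. The other 9 genes overlapped between the lines, and the median log2FC of the 10 was -0.19, against 0.00 over all genes tested.

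Levels can be set against each other between genes only per length of exon. In Col-0 at 0 h the order by CPM per kb was CYP83A1 (193 ± 23.5; SD, n = 3), BCAT4 (189 ± 63.8), MAM1 (144 ± 37.3), SOT18 (112 ± 22), CYP79F1 (86.2 ± 19.6), FMO GS-OX1 (35.0 ± 13.8), MYB29 (27.0 ± 10.3), MYB28 (23.7 ± 8.81), CYP79F2 (6.93 ± 2.15) and MYB76 (2.32 ± 1.36). Neighbours in that order lay within 1 SD of each other's range, except that FMO GS-OX1 was below CYP79F1, CYP79F2 below MYB28 and MYB76 below CYP79F2. CYP83A1, BCAT4, MAM1, SOT18 and CYP79F1 thus lay above all 3 factors that drive them, and MYB76 was the lowest. The exon length of CYP79F1 (3272 bases) includes an annotated form that keeps an intron, which lowers its value per kb.

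**Figure D1:**
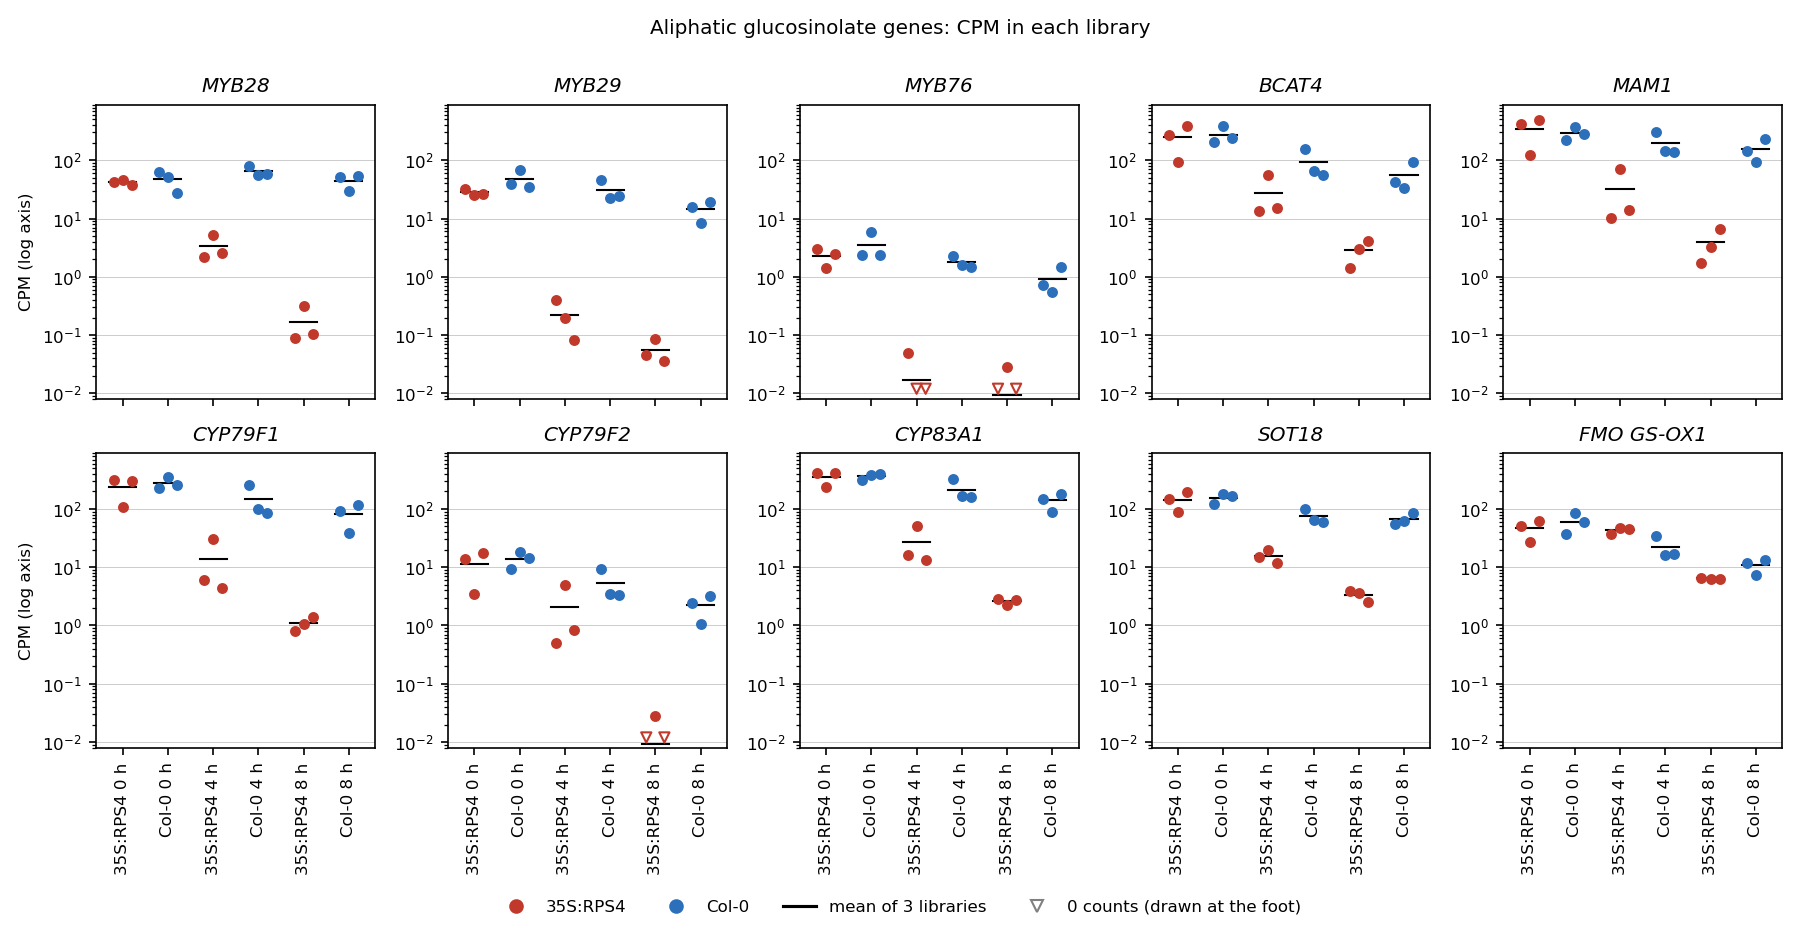
CPM of each of the 10 genes in every library on a log axis, with 35S:RPS4 in red left of Col-0 in blue at 0 h, 4 h and 8 h; bars are means of 3 libraries and open triangles at the foot are counts of 0. The lines overlap at 0 h for all genes but MYB29, which was not called at that time. After the shift, 9 of the 10 genes have their 35S:RPS4 libraries far below those of Col-0 at 8 h. FMO GS-OX1 alone has its 35S:RPS4 libraries above Col-0 at 4 h, a difference that was not called.

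All 3 regulators were called lower in 35S:RPS4 than in Col-0 at 4 h and at 8 h. MYB28 lies at chr5:24689069-24691187 on the minus strand (AT5G61420), and MYB29 (AT5G07690, chr5:2446669-2448584) and MYB76 (AT5G07700, chr5:2450027-2451807) are neighbours on the plus strand of the same chromosome. At 4 h MYB28 stood at 2.15, 5.24 and 2.58 CPM in 35S:RPS4, against 80.6, 55.9 and 58.6 CPM in Col-0. At 8 h it stood at 0.0896, 0.310 and 0.106 CPM in 35S:RPS4, against 50.6, 30.1 and 53.7 CPM in Col-0. The lines did not overlap at either time, and the log2FC was -4.27 ± 0.37 at 4 h (edgeR adjusted p = 4.85e-08) and -7.90 ± 0.50 at 8 h (edgeR adjusted p = 3.05e-10). Its 8 h level in 35S:RPS4 rests on 16 counts in 3 libraries, against 4130 counts in Col-0.

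MYB29 was nearly gone from 35S:RPS4 by 4 h. It was at 0.400, 0.196 and 0.0808 CPM in 35S:RPS4 at 4 h, against 46.2, 22 and 24.2 CPM in Col-0 (log2FC -7.13 ± 0.51; edgeR adjusted p = 4.55e-09). At 8 h it was at 0.0448, 0.0845 and 0.0355 CPM in 35S:RPS4, or 5 counts in all, against 15.8, 8.38 and 19.4 CPM in Col-0 (log2FC -7.86 ± 0.59; edgeR adjusted p = 2.72e-09). Every 35S:RPS4 library lay below every Col-0 library at both times. Within the 4 h libraries MYB28 exceeded MYB29 by a log2 ratio of 2.36, 4.61 and 4.69 in 35S:RPS4 and of 0.80, 1.34 and 1.28 in Col-0. The ratio at 4 h was thus higher in all 3 35S:RPS4 libraries, a difference that was not tested and rests on 8, 5 and 2 counts of MYB29 there. At 8 h the ratio was 0.74, 1.72 and 1.22 in 35S:RPS4 and 1.68, 1.84 and 1.47 in Col-0, with overlap.

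MYB76 was low in all groups and nearly silent after the shift in 35S:RPS4. It had 1 count over the 3 libraries of 35S:RPS4 at 4 h, against 159 counts in Col-0 (2.25, 1.58 and 1.49 CPM), and again 1 count at 8 h, against 85 counts in Col-0 (0.712, 0.559 and 1.5 CPM). Scaled for library size, its level in 35S:RPS4 was 124 times lower at 4 h (95% counting interval 21.9 to 4931) and 79.4 times lower at 8 h (13.9 to 3174). Both differences were called, with edgeR adjusted p = 6.87e-06 at 4 h and edgeR adjusted p = 1.22e-05 at 8 h. How far it fell between the times could not be detected at this depth.

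The members that encode enzymes of side chain elongation were also called lower in 35S:RPS4 at 8 h. BCAT4 (AT3G19710, chr3:6846969-6849582, minus strand), the aminotransferase that takes methionine into the pathway, was at 13.5, 55.0 and 15.3 CPM in 35S:RPS4 at 4 h, against 158, 65.9 and 55.0 CPM in Col-0. Its highest 35S:RPS4 library and its lowest Col-0 library were thus nearly level, and the log2FC of -1.73 ± 0.61 was not called (edgeR adjusted p = 0.0253). Without 35S:RPS4 replicate 2 at 4 h it was -2.69 and called (edgeR adjusted p = 0.00248). At 8 h BCAT4 was at 1.39, 3.04 and 4.11 CPM in 35S:RPS4, against 42.4, 33.4 and 92.9 CPM in Col-0, with no overlap and a log2FC of -4.28 ± 0.70 (edgeR adjusted p = 2.98e-05). Exons of BCAT4 overlap those of AT3G19700 on the opposite strand, and the strand setting of the counting is not given in the sources used here, so part of its reads may belong to that gene.

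MAM1 (AT5G23010, chr5:7703041-7706973, plus strand) encodes the methylthioalkylmalate synthase that adds acetyl units during elongation. It was at 10.1, 71.6 and 13.8 CPM in 35S:RPS4 at 4 h, against 308, 144 and 140 CPM in Col-0. By 8 h the levels were 1.75, 3.27 and 6.67 CPM in 35S:RPS4, against 147, 94.7 and 229 CPM in Col-0. The lines were apart at both times, with a log2FC of -2.63 ± 0.69 at 4 h (edgeR adjusted p = 0.00407) and -5.32 ± 0.79 at 8 h (edgeR adjusted p = 1.03e-05). The call at 4 h was lost without 35S:RPS4 replicate 1 (edgeR adjusted p = 0.0186), without 35S:RPS4 replicate 3 (0.0237) or without Col-0 replicate 1 (0.0204) of that time, and in a fit to only the groups compared (0.0163).

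The cytochromes P450 that commit the lengthened methionine to the pathway are neighbours on chromosome 1, CYP79F2 at chr1:5605044-5607498 (AT1G16400) and CYP79F1 at chr1:5608682-5612064 (AT1G16410), both on the plus strand. Their coding sequences are alike, and read pairs that lie wholly within an identical stretch cannot be assigned. The longest identical stretch is 100 bases in the coding sequence of each (chr1:5609966-5610065 in CYP79F1, chr1:5606398-5606497 in CYP79F2), and it is printed because it shows where counts of the pair could be lost or mixed.
CYP79F1 and CYP79F2: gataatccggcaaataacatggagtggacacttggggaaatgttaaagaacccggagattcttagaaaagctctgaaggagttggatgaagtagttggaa
Of all 50-base windows of their exons, 1.70% in CYP79F1 and 2.89% in CYP79F2 occur in the other gene. CYP79F1, which acts on short and long chains, was at 6.15, 31.0 and 4.48 CPM in 35S:RPS4 at 4 h, against 256, 98.8 and 86.5 CPM in Col-0. After 8 h the values were 0.806, 1.07 and 1.42 CPM in 35S:RPS4, against 91.3, 39.1 and 117 CPM in Col-0. The lines did not overlap, and the log2FC was -3.40 ± 0.67 at 4 h (edgeR adjusted p = 0.00041) and -6.21 ± 0.80 at 8 h (edgeR adjusted p = 2.08e-06). CYP79F2, which acts on long chains, was at 0.50, 4.89 and 0.848 CPM in 35S:RPS4 at 4 h, against 9.38, 3.49 and 3.30 CPM in Col-0. The lines overlapped there through 35S:RPS4 replicate 2, and the log2FC of -1.35 ± 0.70 was not called (edgeR adjusted p = 0.122). Without that library it was -2.97 and called (edgeR adjusted p = 0.00335). At 8 h CYP79F2 had 1 count over the 3 35S:RPS4 libraries, against 207 counts in Col-0 (2.46, 1.05 and 3.22 CPM), a level 193 times lower (95% counting interval 34.3 to 7677). That difference was called (edgeR adjusted p = 0.000211) and was lost with limma voom (adjusted p = 0.0111).

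CYP83A1 (AT4G13770, chr4:7990429-7992429, minus strand) oxidises the aldoximes that the CYP79F enzymes make. It was at 15.9, 51.8 and 13.4 CPM in 35S:RPS4 at 4 h, against 320, 166 and 160 CPM in Col-0. The 8 h libraries held 2.82, 2.28 and 2.73 CPM in 35S:RPS4, against 148, 87.9 and 183 CPM in Col-0. Every 35S:RPS4 library was below every Col-0 library, with a log2FC of -2.99 ± 0.45 at 4 h (edgeR adjusted p = 3e-05) and -5.75 ± 0.53 at 8 h (edgeR adjusted p = 3.03e-08). SOT18 (AT1G74090, chr1:27862814-27864193, plus strand), the sulfotransferase of the last step of the core structure, was at 15.1, 19.9 and 11.6 CPM in 35S:RPS4 at 4 h, against 99.5, 64.7 and 59.7 CPM in Col-0. The levels at 8 h were 3.90, 3.66 and 2.55 CPM in 35S:RPS4, against 54.9, 61.2 and 85.3 CPM in Col-0. SOT18 had the smallest SE among the 9 genes that fell at 8 h, and its lines did not overlap (log2FC -2.26 ± 0.30 at 4 h, edgeR adjusted p = 6.65e-06; -4.32 ± 0.33 at 8 h, edgeR adjusted p = 3.35e-09). In the RefSeq annotation an exon of AT1G74088 on the same strand overlaps SOT18. Whether reads that fit both were counted for SOT18 was not checked.

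FMO GS-OX1 (AT1G65860, chr1:24498954-24502776, minus strand), which oxidises the sulfur of the finished side chain, went its own way. At 4 h it was at 36.9, 46.3 and 44.9 CPM in 35S:RPS4, against 33.7, 16.5 and 16.9 CPM in Col-0. By 8 h the levels were 6.50, 6.40 and 6.35 CPM in 35S:RPS4, against 11.8, 7.50 and 13.3 CPM in Col-0. All 35S:RPS4 libraries were thus above Col-0 at 4 h and below Col-0 at 8 h, but neither difference was called (log2FC 0.93 ± 0.33 at 4 h, edgeR adjusted p = 0.0271; -0.76 ± 0.35 at 8 h, edgeR adjusted p = 0.0563). The share of all genes without overlap at these times was not counted, so no difference is read from the separation alone. An unadjusted p under 0.05 was reached by 56.9% of all genes at 4 h and 79.2% at 8 h. Without Col-0 replicate 1 at 4 h the log2FC at 4 h was 1.36 and called higher (edgeR adjusted p = 0.004). The change of the genotype effect between 4 h and 8 h was itself called, at -1.69 ± 0.48 (edgeR adjusted p = 0.00679), and the call ended in a fit with library totals alone (adjusted p = 0.0173), with limma voom (0.0153) and without 35S:RPS4 replicate 2 or 3 at 4 h, any 35S:RPS4 replicate at 8 h, Col-0 replicate 2 or 3 at 4 h or Col-0 replicate 1 or 3 at 8 h (0.014 to 0.0206). Of its 50-base exon windows 0.288% also occur in FMO GS-OX2.

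Between the lines, 7 of the 10 genes were called lower at 4 h, against 12.4% of all genes tested, and 9 of 10 at 8 h, against 30.1%. None was called higher, against 16.6% of all genes at 4 h and 26.6% at 8 h. The median log2FC of the 10 was -2.81 at 4 h and -5.80 at 8 h, against -0.01 and -0.10 over all genes tested. The summed level of the 7 enzymes was 98.2 to 281 CPM in 35S:RPS4, against 521 to 1185 CPM in Col-0 at 4 h, then 17.2 to 23.8 CPM in 35S:RPS4, against 325 to 724 CPM in Col-0 at 8 h. That of the regulators was 2.60 to 5.44 CPM in 35S:RPS4, against 79.5 to 129 CPM in Col-0 at 4 h, and 0.134 to 0.423 CPM in 35S:RPS4, against 39.0 to 74.6 CPM in Col-0 at 8 h. Scaling bears on the 4 h values, since with library totals alone the median log2FC of all genes at 4 h was -0.43, against -0.01 with TMM scaling, and 4237 genes were lower and 2659 higher in place of 2490 and 3315. BCAT4 was called at 4 h under that scaling (-2.14, edgeR adjusted p = 0.00742) and no other member changed its call or its direction between the lines.

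**Figure D2:**
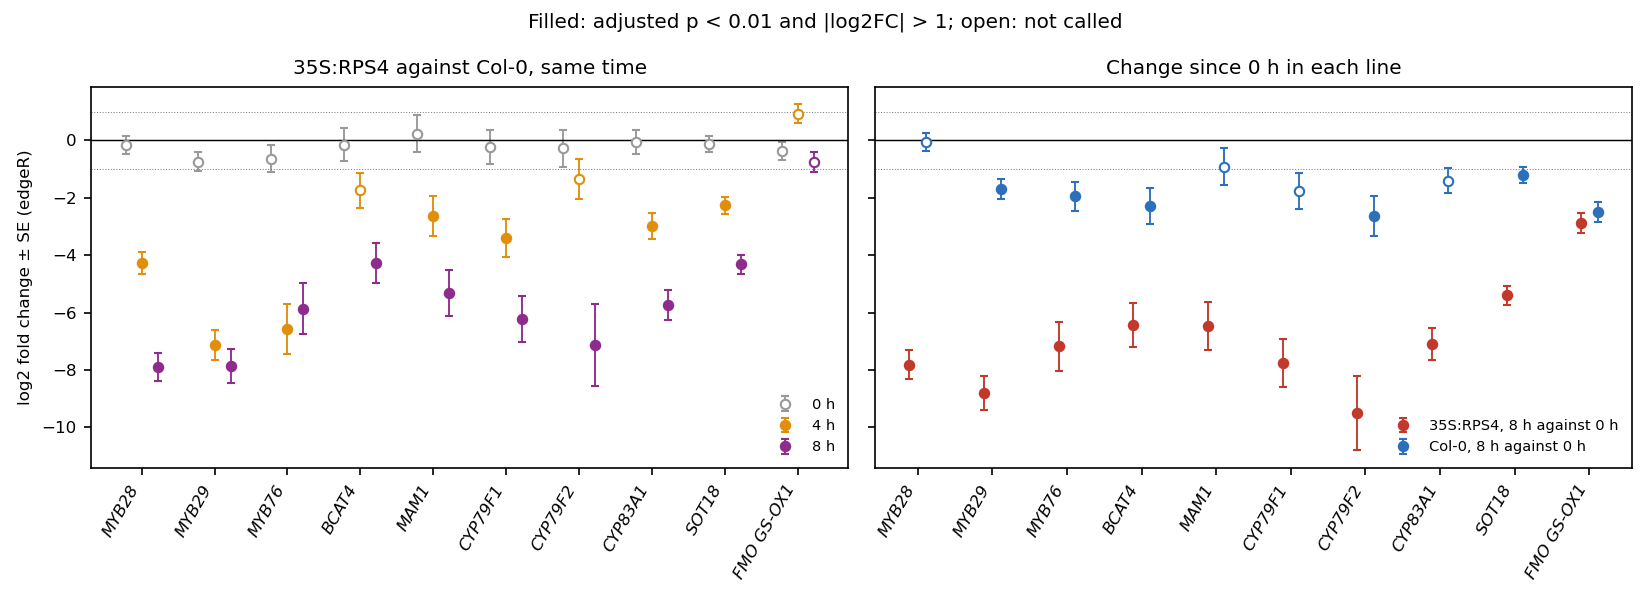
Log2FC ± SE from edgeR for each gene, on the left of 35S:RPS4 against Col-0 at 0 h (grey), 4 h (orange) and 8 h (purple), on the right of 8 h against 0 h in 35S:RPS4 (red) and Col-0 (blue); filled points passed the thresholds, dotted lines mark a log2FC of 1 and -1. On the left no point is filled at 0 h, 7 are at 4 h and 9 at 8 h; on the right all 10 are filled in 35S:RPS4 and 6 in Col-0, where MYB28 lies at -0.07.

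Within 35S:RPS4, 9 of 10 genes were lower at 4 h than at 0 h, against 14.8% of all genes, all but FMO GS-OX1 (log2FC -0.14 ± 0.33). At 8 h all 10 were lower than at 0 h, against 29.7% of all genes, with fitted log2FC from -2.88 ± 0.36 in FMO GS-OX1 to -8.82 ± 0.59 in MYB29 among the 8 genes with more than 3 counts at 8 h. At 0 h MYB28 had been at 42.2, 46.4 and 38.2 CPM in this line and CYP83A1 at 416, 233 and 412 CPM. From 4 h to 8 h 8 of 10 were lower, against 25.1% of all genes, and FMO GS-OX1 was among them (-2.73 ± 0.36). MYB29 (-1.81 ± 1.01) and MYB76 had too few counts left at 4 h to show a further fall. The call of CYP79F2 at 4 h against 0 h (-2.45 ± 0.71, edgeR adjusted p = 0.00733) was lost without 35S:RPS4 replicate 1 or 3 at 0 h, replicate 1 or 3 at 4 h or replicate 2 at 8 h (edgeR adjusted p = 0.0119 to 0.0376), with limma voom (adjusted p = 0.0112) and in a fit to only the groups compared (0.0258). That of MAM1 at 8 h against 4 h (-3.02 ± 0.73, edgeR adjusted p = 0.00156) was lost without 35S:RPS4 replicate 2 at 4 h (-1.61, edgeR adjusted p = 0.0263) or replicate 1 at 8 h (-2.69, edgeR adjusted p = 0.0101), in a fit to only the groups compared (0.0111) and with limma voom (0.0244). Limma voom also ended the calls of BCAT4 (adjusted p = 0.0133), CYP79F1 (0.0479) and CYP79F2 (0.0273) at 8 h against 4 h.

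Fewer of the genes were called in Col-0. At 4 h 1 of 10 genes was lower than at 0 h, FMO GS-OX1 (-1.44 ± 0.34, edgeR adjusted p = 0.00445), against 4.79% of all genes, and this call was lost without Col-0 replicate 2 or 3 at 0 h or without replicate 2 or 3 at 4 h (edgeR adjusted p = 0.0114 to 0.0286) and in a fit to only the groups compared (0.0282). SOT18, at -1.05 with edgeR adjusted p = 0.0112, was called with DESeq2 (adjusted p = 0.00185), with limma voom (0.00577) and without 35S:RPS4 replicate 2 or 3 at 0 h, Col-0 replicate 1 at 0 h, Col-0 replicate 1 at 4 h or Col-0 replicate 3 at 8 h (edgeR adjusted p = 0.00578 to 0.00993). At 8 h 6 of 10 were lower than at 0 h, against 11.8% of all genes. They were MYB29 (-1.69 ± 0.34), MYB76 (-1.95 ± 0.50), BCAT4 (-2.29 ± 0.62), CYP79F2 (-2.64 ± 0.71), SOT18 (-1.20 ± 0.28) and FMO GS-OX1 (-2.48 ± 0.35). This count fell to 3 without Col-0 replicate 2 at 0 h and to 2 without replicate 1 or replicate 2 of Col-0 at 8 h. BCAT4 (edgeR adjusted p = 0.0102) and CYP79F2 (0.0126) were lost without Col-0 replicate 3 at 0 h. MYB76 was lost in a fit to only the groups compared (edgeR adjusted p = 0.021). CYP79F1 (-1.77) and CYP83A1 (-1.40) were called as well without 35S:RPS4 replicate 2 at 4 h (edgeR adjusted p = 0.00512 and 0.00105), in a fit to only the groups compared and with limma voom, and CYP83A1 also with DESeq2 and without 35S:RPS4 replicate 1 or 3 or Col-0 replicate 1 at 4 h. MYB28 did not follow, at 61.9, 51.0 and 27.8 CPM at 0 h, 80.6, 55.9 and 58.6 CPM at 4 h and 50.6, 30.1 and 53.7 CPM at 8 h. Its log2FC at 8 h against 0 h in Col-0 was -0.07 ± 0.31, with a 95% interval of -0.68 to 0.55. Between 8 h and 4 h in Col-0, edgeR called 0 of 10, against 4.88% of all genes called lower and 4.40% higher, while 2 members had an unadjusted p under 0.05, as 41% of all genes did, and DESeq2 and limma voom called 0 as well.

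The difference between the lines in the change since 0 h was tested as an interaction. At 4 h it was called lower for 6 of 10 genes, against 10.2% of all genes, namely the 3 regulators, CYP79F1, CYP83A1 and SOT18, and called higher for 0, against 15.0%. The call of CYP79F1 (-3.17 ± 0.88, edgeR adjusted p = 0.00814) was lost without 35S:RPS4 replicate 1 or 3 at 0 h or at 4 h, any 35S:RPS4 replicate at 8 h, any Col-0 replicate at 0 h, or Col-0 replicate 1 at 4 h or at 8 h (edgeR adjusted p = 0.0103 to 0.0297), and in a fit to only the groups compared (0.0171). MAM1, at -2.87 with edgeR adjusted p = 0.0205, was called lower without 35S:RPS4 replicate 2 at 4 h (-4.28, edgeR adjusted p = 0.000468), without 35S:RPS4 replicate 2 at 0 h (-3.27, edgeR adjusted p = 0.00912) and with limma voom (adjusted p = 0.00708). FMO GS-OX1 was called higher without Col-0 replicate 1 at 4 h (1.72, edgeR adjusted p = 0.0062). At 8 h it was called lower for 9 of 10, against 27.3% of all genes, with FMO GS-OX1 as the exception (-0.39 ± 0.48, edgeR adjusted p = 0.48), and CYP79F2 was lost with limma voom (adjusted p = 0.0222). The effect of the line was more negative at 8 h than at 4 h for 4 genes, against 22.9% of all genes called lower, namely MYB28 (-3.62 ± 0.64), CYP83A1 (-2.76 ± 0.63), SOT18 (-2.06 ± 0.42) and FMO GS-OX1 (-1.69 ± 0.48), and for 7 genes without Col-0 replicate 1 at 4 h, with BCAT4, CYP79F1 and CYP79F2 added. CYP79F2 was called with DESeq2 (adjusted p = 0.000743) and without 35S:RPS4 replicate 2 at 0 h (edgeR adjusted p = 0.00667) too, among other settings, while MYB28 (0.0127) and CYP83A1 (0.0131) were lost with limma voom.

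Other genes of the pathway were drawn from a list of 33 ordered by role, of which 32 passed the filter and 1 (AOP3) had 0 counts in every library. Between the lines 11 were lower and 4 higher at 4 h, and 16 lower and 4 higher at 8 h, with a median log2FC of -0.30 at 4 h and -1.38 at 8 h. Of all genes tested 12.4% were lower and 16.6% higher at 4 h, and 30.1% lower and 26.6% higher at 8 h. Of the 7 other chain elongation genes 4 were lower at 4 h and 5 at 8 h. The isopropylmalate isomerase subunit genes IPMI SSU2 and IPMI SSU3 and the dehydrogenase gene IPMDH1 led them, with log2FC of -5.69 ± 0.76, -5.47 ± 0.67 and -5.55 ± 0.67 at 8 h. Of the 7 other core structure genes 3 were lower and 1 higher at 4 h, and 4 were lower at 8 h. Those that led were the glutathione transferase genes GSTF11 and GSTU20 and the glucosyltransferase gene UGT74C1. GSTU20 averaged 1.61 ± 0.37 CPM in 35S:RPS4, against 200 ± 77.4 CPM in Col-0 at 8 h (SD, n = 3 each; log2FC -6.97 ± 0.62), and UGT74C1 2.30 ± 0.50 CPM in 35S:RPS4, against 83.0 ± 12.3 CPM in Col-0 (log2FC -5.18 ± 0.23). GSTF11 had 1 count in 35S:RPS4 at 8 h, against 544 counts in Col-0. The 1 higher gene, GGP1, chosen for mention after its value was seen, encodes a peptidase that the indole branch uses too and was higher at 4 h only (log2FC 2.76 ± 0.45). It was at 215 to 709 CPM at 0 h and 731 to 1286 CPM at 4 h in 35S:RPS4. In Col-0 it was at 290 to 1039 CPM at 0 h and 114 to 196 CPM at 4 h. Within 35S:RPS4, 0 of these 7 core structure genes were called higher at 4 h than at 0 h.

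The side chain oxygenases differed among themselves. FMO GS-OX3 fell with the core genes (-4.79 ± 0.48 at 4 h and -6.55 ± 0.56 at 8 h) and FMO GS-OX2 was lower at 8 h (-2.03 ± 0.53), whereas FMO GS-OX4 and FMO GS-OX5 were not called. The transporter genes GTR1 and GTR2, which move glucosinolates between tissues, changed at different times, GTR2 being higher at 4 h (1.46 ± 0.28) and GTR1 lower at 8 h (-2.72 ± 0.37). Among 6 genes of breakdown, the myrosinase genes TGG1 and TGG2 were not called at either time, while ESM1, a modifier that favours isothiocyanates, was lower at both (-2.27 ± 0.25 at 4 h and -5.68 ± 0.29 at 8 h). ESP, which steers breakdown to nitriles and epithionitriles, was lower at 8 h (-2.44 ± 0.21) and NSP5, a nitrile specifier gene, was higher (1.49 ± 0.27). Among 6 upstream regulator genes, those of the MYC factors that work with the MYB factors split, with MYC2 (3.15 ± 0.53 at 4 h and 2.01 ± 0.51 at 8 h) and MYC3 (1.33 ± 0.19 and 1.89 ± 0.20) higher and MYC4 lower (-3.29 ± 0.31 and -1.55 ± 0.29).

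**Figure D3:**
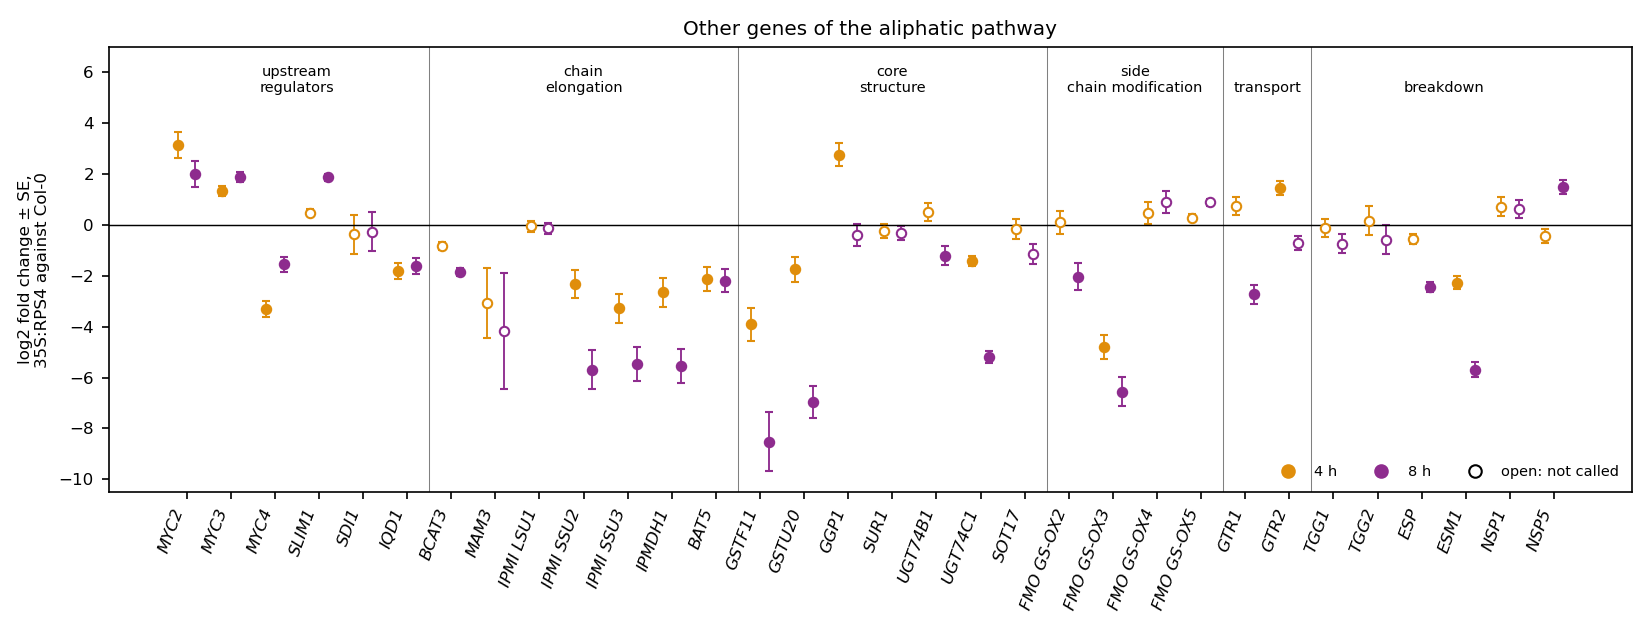
Log2FC ± SE of 35S:RPS4 against Col-0 at 4 h (orange) and 8 h (purple) for the other genes of the pathway, ordered by role; open points did not pass the thresholds. Chain elongation and core structure genes reach -5.69 and -8.52 at 8 h (the second from a gene with 1 count in 35S:RPS4), MYC2 and MYC3 lie above 0, and the myrosinase genes TGG1 and TGG2 are open at both times.

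The indole branch moved the other way at 4 h. Of its 7 genes 6 were higher in 35S:RPS4 at 4 h, with a median log2FC of 4.10, and 3 were higher and 1 lower at 8 h, against 16.6% of all genes higher at 4 h and 26.6% higher and 30.1% lower at 8 h. Among these 6, MYB122 rested on 4, 8 and 7 counts in 35S:RPS4 at 4 h, against 0 in each Col-0 library then. The exception among the 7 was MYB34, a regulator of the branch, which was not called at 4 h (log2FC -0.63 ± 0.48) and was lower at 8 h (-4.23 ± 0.63), at 0, 1.3 and 0.496 CPM in 35S:RPS4, against 11.6, 10.9 and 14.9 CPM in Col-0. At 0 h it was more abundant than MYB51, with means of 63.0 CPM in 35S:RPS4 (MYB51 0.915), against 131 CPM in Col-0 (MYB51 0.381). To compare the branches at the same step, the log2 ratio of the aliphatic to the indole gene was taken within each library, which does not depend on how libraries are scaled. For the regulators MYB28 over MYB51 (a ratio that leaves out MYB34) it averaged 5.51 ± 0.39 in 35S:RPS4 and 7.01 ± 0.53 in Col-0 at 0 h, -6.55 ± 0.63 in 35S:RPS4 and 6.35 ± 0.70 in Col-0 at 4 h, and -6.95 ± 0.98 in 35S:RPS4 and 3.96 ± 0.37 in Col-0 at 8 h (SD, n = 3 each). CYP79F1 over CYP79B2, which makes the indole aldoxime, averaged -4.65 ± 1.38 in 35S:RPS4 and 4.31 ± 1.26 in Col-0 at 4 h, and -4.35 ± 0.32 in 35S:RPS4 and 2.32 ± 0.48 in Col-0 at 8 h. CYP83A1 over CYP83B1, its counterpart in the indole branch, averaged -4.76 ± 0.99 in 35S:RPS4 and 2.34 ± 0.40 in Col-0 at 4 h, and -5.94 ± 0.25 in 35S:RPS4 and 1.27 ± 0.31 in Col-0 at 8 h. The aliphatic gene of each pair thus had fewer counts than the indole gene in all 35S:RPS4 libraries after the shift and more in all Col-0 libraries. The lines did not overlap in any of these, nor in MYB28 over MYB51 at 0 h, each with p = 0.1 in an exact two-sided permutation test, the smallest that 3 against 3 allows (0.129 adjusted over 9 tests). At 0 h the differences of the P450 pairs were 0.89 and 0.64, with overlap and exact permutation p = 0.3 and 0.4.

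**Figure D4:**
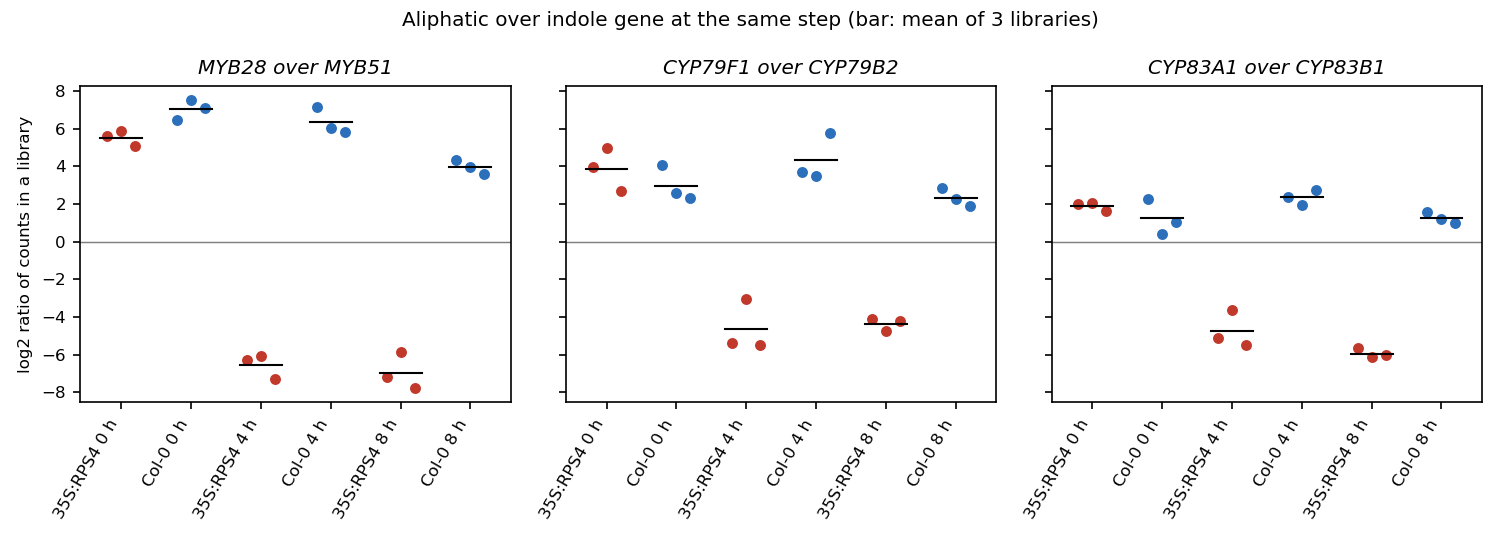
Log2 ratio of counts (each with 0.5 added) of an aliphatic to an indole gene in each library, with 35S:RPS4 in red left of Col-0 in blue at each time and bars for means of 3 libraries. All 35S:RPS4 points lie below 0 at 4 h and 8 h and all Col-0 points above 0.

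Over the 18 libraries the members kept close company, which is a description of libraries that share their groups. Pearson correlations of log2 CPM between the 45 pairs of members lay between 0.44 and 0.995, with a median of 0.94. After the group means were taken out they lay between 0.18 and 0.96, with a median of 0.60, so that libraries of a group high in 1 member tended to be high in others, as 35S:RPS4 replicate 2 at 4 h was for all 7 enzymes. Against the mean log2 CPM of the 10 genes, CYP79F1 had r = 0.997 and FMO GS-OX1 r = 0.645, which placed FMO GS-OX1 at rank 5686 of 20023 genes. Each member is part of that mean, which raises its r above that of a gene outside it. The 6 genes outside the 10 with the highest r were IPMI1 (0.989), IMD1 (0.989), SBP2 (0.989), DJ1F (0.986), TPPH (0.985) and FMO GS-OX3 (0.985), of which IPMI1 and IMD1 are the RefSeq symbols of IPMI SSU3 and IPMDH1. SBP2, a selenium-binding protein gene, averaged 4.04 CPM in 35S:RPS4, against 97.3 CPM in Col-0 at 8 h.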

How the data were processed

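The 18 leaf libraries of poly(A) RNA fall into 6 groups. Per the labels, 2.5 µg of total RNA went into each preparation, which removed ribosomal RNA and primed cDNA with oligo-dT. The submitters' processing notes name FastQC 0.11.2, TopHat2 2.0.10 and the build TAIR10, and the authors deposited raw counts per gene made with HTSeq, whose version and strand setting are not given in the sources used here. The counting drops read pairs with several matches, which makes values of near copies uncertain. Besides 32678 genes there were 5 summary lines, left out of library sizes and tests. The line for reads assigned to no gene held 48.5% to 49.2% of the counts of a library. Whether those reads lay outside genes was not tested.

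The tools were edgeR 4.0.16, DESeq2 1.42.0 and limma 3.58.1 (R 4.3.3), with matplotlib 3.10.9 under Python 3.11.15 for plots. The filter filterByExpr removed 12655 genes. Libraries were scaled by TMM (factors 0.797 to 1.15), edgeR's quasi-likelihood fit took in all 18 libraries with 1 coefficient for each group, and p-values were Benjamini-Hochberg adjusted over the 20023 genes tested. CPM values were computed on the TMM-scaled sizes, and log2 CPM with a prior count of 2. Calls needed an adjusted p under 0.01 and an absolute log2FC above 1. The alternatives were median-of-ratios scaling, library totals alone, no filter, DESeq2, limma voom, a filter that asks for 1 CPM in 3 libraries, only the groups compared, an adjusted p under 0.05 with no fold threshold, the replicate number as a block, and each library left out. The fits were tested on simulated counts. No library was a copy of another of its group, since a chi-square statistic per gene lay between 12.6 and 114 for every pair.

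Named genes were the 10 members, up to 3 genes per role list with the largest absolute log2FC at 4 h or 8 h among those called (otherwise the 2 highest), the 6 genes most like the mean of the members, RPS4 and the indole genes of the ratios. Outside this rule GGP1, FMO GS-OX4, FMO GS-OX5, TGG1, TGG2, AOP3, MYB34 and MYB122 were named after their values were seen. The members and lists were chosen with earlier results of these data known. Of the list genes 1 was not analysed here. Positions, symbols and sequences were taken from the RefSeq annotation of TAIR10.1, and the windows of all 10 members were matched by locus code.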

Additional observations from a re-analysis of the deposited data

Results flagged for a closer look

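Results listed here differ between the lines or between times by a test of the difference itself (edgeR, Benjamini-Hochberg adjusted p under 0.01 and an absolute log2 value above 1), and no explanation was tested. In the change since 0 h, 35S:RPS4 minus Col-0, the values at 4 h were -4.12 for MYB28, -6.40 for MYB29, -5.93 for MYB76, -3.17 for CYP79F1, -2.93 for CYP83A1 and -2.15 for SOT18. At 8 h they were -7.75 for MYB28, -7.13 for MYB29, -5.23 for MYB76, -4.14 for BCAT4, -5.56 for MAM1, -5.99 for CYP79F1, -6.86 for CYP79F2, -5.69 for CYP83A1 and -4.20 for SOT18. The fitted values of MYB76 at both times and of CYP79F2 at 8 h rest on 1 count in 35S:RPS4 and depend on the prior count. The effect of the line at 8 h minus that at 4 h was -3.62 for MYB28, -2.76 for CYP83A1, -2.06 for SOT18 and -1.69 for FMO GS-OX1. No group was large enough for a test of single outlying libraries.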

How the results depend on the processing

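Of 3118 values of single members under the alternatives 3013 stayed on their side of the thresholds, 37 passed them and 68 no longer did, and none changed sign while called. Counts moved by over 1.5 times in these cases. With an adjusted p under 0.05 and no fold threshold, 1 gene was higher between the lines at 4 h and 1 in the interaction at 4 h (0 in the report for both), 2 were lower in Col-0 at 4 h against 0 h (1 in the report), 2 in Col-0 at 8 h against 4 h (0 in the report) and 8 in the effect at 8 h minus 4 h (4 in the report). With limma voom 4 were lower in 35S:RPS4 at 8 h against 4 h (8 in the report), 2 in Col-0 at 4 h against 0 h and 1 in the effect at 8 h minus 4 h. DESeq2 called 2 in Col-0 at 4 h against 0 h, and a fit to only the groups compared 0. Over all genes at 0 h DESeq2 called 71 lower and 4 higher, against 0 and 2 with edgeR. With library totals alone the share of higher among the genes called at 4 h between the lines was 38.6%, against 57.1% with TMM.

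With 1 library left out, the count lower between the lines was 6 to 9 at 4 h (0 to 1 higher) and 9 at 8 h. In 35S:RPS4 the count was 8 to 9 at 4 h against 0 h, 7 to 8 at 8 h against 4 h, 0 to 2 in Col-0 at 4 h against 0 h and 2 to 8 at 8 h against 0 h. It was 5 to 7 in the interaction at 4 h (0 to 1 higher) and 3 to 7 in the effect at 8 h minus 4 h. The cause of these shifts was not tested.

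Whether the replicate numbers pair the samples could not be settled with 3 libraries in a group. The 27 correlations of deviations between groups for same-numbered libraries lay between -0.15 and 0.22, and in 29 of 90 comparisons a library correlated best with its own number. Between the lines they were -0.12, -0.004 and -0.13 at 0 h. At 4 h they were 0.21, 0.01 and 0.21, and at 8 h 0.14, 0.03 and 0.22. With the replicate number as a block, 7 members were lower in 35S:RPS4 than in Col-0 at 4 h, and 9 were at 8 h. Under the block the calls of CYP79F2 in 35S:RPS4 at 4 h against 0 h (adjusted p = 0.0186), of CYP79F1 in the interaction at 4 h (0.0202) and of FMO GS-OX1 in the effect at 8 h minus 4 h (0.0102) were lost, and no other call of a member changed.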
